A study of Mus musculus with 12 samples.

Results

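Syne1 and 9 other genes of giant cytoskeletal linker proteins were followed across the somatosensory cortex libraries: Syne1, Syne2, Dst, Macf1, Utrn, Dmd, Sptbn1, Sptan1, Ank2 and Ank3. The rows of the count files that carried these 10 symbols were taken, which gave 33 RefSeq transcripts of the 35840 listed, under 10 of 24452 symbols, and the counts of a symbol's transcripts were also summed. Syne1 was selected on its measured values: its transcript NM_001079686 stood out when WT ethanol was compared with WT saline, and the other 9 genes were set beside it as structural relatives. For that reason the WT comparison, and every comparison that used a WT library, is given as a description: fold changes and counts past a threshold are set beside the same over all transcripts, no member's p-value is printed, and nothing is read from the counts. KO ethanol versus KO saline shared no library with the comparison that selected Syne1, and its tests are reported. Their spread was estimated over all 12 libraries, the WT libraries included, and the KO saline libraries also served in KO saline versus WT saline.

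The mice were male C57BL/6 pups of postnatal day 7 from matings of p53 heterozygotes. Wild-type (WT) pups and p53 knockout (KO) pups, which carried the Trp53tm1Tyj allele, received ethanol or saline intraperitoneally, and the cortex was collected 8 h later. The KO allele was inherited, so it was carried by every cell of the animal and not by 1 cell type. Each of the 4 groups had 3 libraries, which are named here by their library numbers: WT saline 1, 3 and 13, WT ethanol 4, 5 and 14, KO saline 7, 8 and 9, and KO ethanol 10, 12 and 18.

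Giant linker proteins tie membranes and organelles to the cytoskeleton. Nesprins, encoded by Syne1 and Syne2, sit in the outer nuclear membrane and bind actin and motor proteins. The spectraplakins Dst and Macf1 cross-link actin, microtubules and intermediate filaments. Dystrophin (Dmd) and its relative utrophin (Utrn) join actin to the dystroglycan complex in the plasma membrane. Spectrin tetramers of Sptan1 and Sptbn1 chains form the lattice under the axonal membrane, to which the ankyrins Ank2 and Ank3 fasten channels and adhesion molecules, with ankyrin-G (Ank3) at the axon initial segment.

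The genes are long, and the listed transcripts do not cover all of them. In mm10, Syne1 was listed as NM_001079686 (chr10:5020196-5194708) and NM_022027 (chr10:5020196-5069064), both at the 3′ end of this minus-strand gene, and as NM_153399 (chr10:5336949-5550693) at its 5′ end. NM_022027 lies inside the span of NM_001079686, so a read in the shared exons was divided between them by estimation. The longest GENCODE vM21 transcript of Syne1 has 27908 bases in 146 exons, and 57 of these exons fall outside the 3 listed spans. Members were long among all transcripts: the 31 that passed the low-count filter had a median length of 8716 bases, against 3064 bases for all 21715 tested. Ank3 was listed as 9 transcripts, Dmd as 6, Dst as 4, Sptan1 as 3, Macf1, Sptbn1 and Ank2 as 2 each, and Syne2 and Utrn as 1 each. Dst NM_010081, at 1.14 CPM or less in every library, and Dmd NM_001314038, at 3.59 CPM or less, did not pass the filter (CPM, the count scaled to library size with TMM factors).

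Where transcripts of a gene are listed with different starts, their counts can be set beside these. The sequences at the listed starts are shown for Syne1, Sptbn1 and Dmd. Dst, Ank2 and Ank3 also have transcripts with separate starts, which are not shown. Each is the 300-base RefSeq stretch of GRCm38.p6 around the start, most of it before the start, written in the direction of transcription. Capitals mark TATAAA or GGGCGG on either strand, so that TTTATA and CCGCCC are their reverse complements. The start of Syne1 NM_153399 (minus strand, chr10:5550643-5550942) and that of NM_022027 (minus strand, chr10:5069014-5069313) read as follows, and no entry was matched to the start of NM_001079686.
Syne1 NM_153399: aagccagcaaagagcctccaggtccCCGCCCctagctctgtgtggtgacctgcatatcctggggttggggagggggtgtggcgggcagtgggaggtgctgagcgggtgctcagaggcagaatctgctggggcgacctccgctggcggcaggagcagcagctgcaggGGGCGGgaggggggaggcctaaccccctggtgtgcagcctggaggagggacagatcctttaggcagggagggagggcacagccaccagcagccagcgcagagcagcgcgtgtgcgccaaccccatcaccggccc
Syne1 NM_022027: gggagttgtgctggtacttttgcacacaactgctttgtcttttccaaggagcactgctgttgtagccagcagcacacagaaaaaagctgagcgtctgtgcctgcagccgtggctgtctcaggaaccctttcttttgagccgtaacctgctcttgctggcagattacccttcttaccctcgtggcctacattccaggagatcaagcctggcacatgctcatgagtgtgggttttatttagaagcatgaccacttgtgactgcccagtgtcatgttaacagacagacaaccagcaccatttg

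The Syne1 5′ start was rich in CpG (12 dinucleotides) and held GGGCGG at 2 places, while the internal start of NM_022027 had 4 CpG and no match to TATAAA or GGGCGG. Over all 32851 promoters of this length the median was 7 CpG, and on either strand 35.7% held GGGCGG and 13.6% held TATAAA. The Sptbn1 starts of NM_175836 (minus strand, chr11:30219723-30220022) and NM_009260 (minus strand, chr11:30198208-30198507) also differed.
Sptbn1 NM_175836: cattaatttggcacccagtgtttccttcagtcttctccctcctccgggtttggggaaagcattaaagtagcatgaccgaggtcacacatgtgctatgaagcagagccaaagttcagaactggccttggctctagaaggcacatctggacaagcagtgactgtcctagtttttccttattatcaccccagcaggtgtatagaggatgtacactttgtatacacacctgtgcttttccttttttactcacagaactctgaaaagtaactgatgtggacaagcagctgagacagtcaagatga
Sptbn1 NM_009260: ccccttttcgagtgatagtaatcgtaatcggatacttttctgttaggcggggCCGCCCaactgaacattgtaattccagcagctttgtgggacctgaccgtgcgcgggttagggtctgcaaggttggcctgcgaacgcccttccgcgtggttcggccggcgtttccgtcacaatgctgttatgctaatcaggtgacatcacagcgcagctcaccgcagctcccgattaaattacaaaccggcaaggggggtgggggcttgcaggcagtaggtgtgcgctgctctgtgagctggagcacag

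NM_009260 was listed as starting in a stretch with 21 CpG, and NM_175836 in a stretch with 2. RefSeq places the 5′ end of Sptbn1 at chr11:30268384, upstream of the listed start of NM_175836. The stretch shown for NM_175836 thus lies inside the gene and may not be a promoter. In Dmd, the full-length transcript NM_007868 (plus strand, chrX:82948620-82948919) and the 5 short transcripts, NM_001314034 to NM_001314038 (plus strand, chrX:85048045-85048344) have separate listed starts. RefSeq places the 5′ end of Dmd at chrX:82814664, upstream of both, so these stretches also lie inside the gene.
Dmd NM_007868: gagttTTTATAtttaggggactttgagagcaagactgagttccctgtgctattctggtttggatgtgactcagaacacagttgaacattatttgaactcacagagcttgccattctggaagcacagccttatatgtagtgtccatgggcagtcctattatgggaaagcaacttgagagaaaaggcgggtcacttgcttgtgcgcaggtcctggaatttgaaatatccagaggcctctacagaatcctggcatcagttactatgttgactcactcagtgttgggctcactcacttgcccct
Dmd short: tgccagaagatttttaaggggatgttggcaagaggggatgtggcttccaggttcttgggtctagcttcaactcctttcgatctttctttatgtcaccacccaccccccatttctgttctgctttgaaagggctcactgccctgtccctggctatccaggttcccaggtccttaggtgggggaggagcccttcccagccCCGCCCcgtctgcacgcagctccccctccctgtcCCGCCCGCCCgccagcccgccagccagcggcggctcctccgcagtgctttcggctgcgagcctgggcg

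The full-length start held TATAAA and 2 CpG, and the short start held 14 CpG and GGGCGG at 3 places. None of the 17 promoter entries found for these genes held the p53 motif searched for, and Ank3 had no entry. The motif was a 10-base unit that makes up only part of a full response element. It was found in 8.36% of all promoters. These matches describe letters in the window and do not show binding.

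Depth ran from 719735 to 17066392 estimated counts per library, and KO ethanol 12 (719735) and WT saline 3 (1953154), the 2 libraries named with L, were the shallowest. Trp53 reached 3.67 to 28.7 CPM, with overlapping groups. Its transcripts are not a clean test of the KO label because a disrupted gene can still be transcribed. The share of its count given to NM_001127233 was 7.01% to 23.1% in the WT libraries, 65.7% to 70.6% in KO saline and 7.01% to 70.6% in KO ethanol. The lowest KO share was in the library labelled KO ethanol 12, within the WT range but on very few Trp53 counts, so the KO comparison is also given without that library. Markers of neurons, excitatory cortical neurons, interneurons, astrocytes, oligodendrocytes, microglia and vessels were present in every library. Choroid plexus markers reached 4953 CPM in WT ethanol 4, 2238 CPM in KO saline 9 and 2201 CPM in KO ethanol 18, and were at 406 CPM or less elsewhere. Striatum markers were at 243 and 557 CPM in WT ethanol 5 and 14 and 234 CPM in KO ethanol 18, and at 125 CPM or less elsewhere. WT ethanol 4 was also the highest library for NM_001079686 and for 4 gene sums, and the part of these tissues was not tested. Red blood cell markers ranged from 29.0 to 1319 CPM. Levels between libraries are CPM, and levels between genes are sums of the deposited RPKM. In such bulk samples fewer cells of a type and less RNA per cell cannot be told apart.

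Per length, spectrin was the most abundant of these proteins' messages. In KO saline, whose libraries were closest to each other, the order of summed RPKM was Sptan1 (172 ± 7.95, SD, n = 3), Sptbn1 (119 ± 19.6), Ank2 (76.0 ± 8.15), Ank3 (24.3 ± 4.86), Syne1 (20.8 ± 4.98), Macf1 (17.7 ± 0.461), Dst (12.6 ± 0.679), Dmd (9.38 ± 1.68), Utrn (1.47 ± 0.0711) and Syne2 (0.995 ± 0.0692). Ank3, Syne1 and Macf1 overlapped in this order, and the other neighbours did not. In the other groups Sptan1, Sptbn1 and Ank2 also led by their means, and Utrn and Syne2 were last. The RPKM of Syne1 and Ank2 rest on partial transcripts only, since 21 of the 46 exons of the longest Ank2 transcript were also outside the listed spans.

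NM_001079686, the Syne1 transcript that drew attention, was scarce in the WT saline libraries and in no others. It measured 4.42, 4.60 and 4.01 CPM in WT saline 1, 3 and 13. In WT ethanol 4, 5 and 14 it measured 108, 28.1 and 33.3 CPM. In KO saline it measured 48.6, 44.5 and 52.0 CPM, and in KO ethanol 44.1, 26.5 and 47.6 CPM. All 9 other libraries thus lay above all 3 WT saline libraries, and the WT ethanol, KO saline and KO ethanol groups overlapped. The log2 fold change was 3.73 ± 0.54 (SE) for WT ethanol versus WT saline and 3.49 ± 0.54 for KO saline versus WT saline, and these 2 comparisons share the WT saline libraries. Within KO the log2 fold change with ethanol was -0.27 ± 0.48 (95% interval -1.21 to 0.66, edgeR adjusted p = 1.00). WT ethanol 4 was the highest library, and without it the log2 fold change in WT was 2.84. NM_022027, which shares exons with NM_001079686, was given 132 rounded counts in WT saline 3, against 9 for NM_001079686. The low value in that library thus depends on how shared reads were divided.

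**Figure D1:**
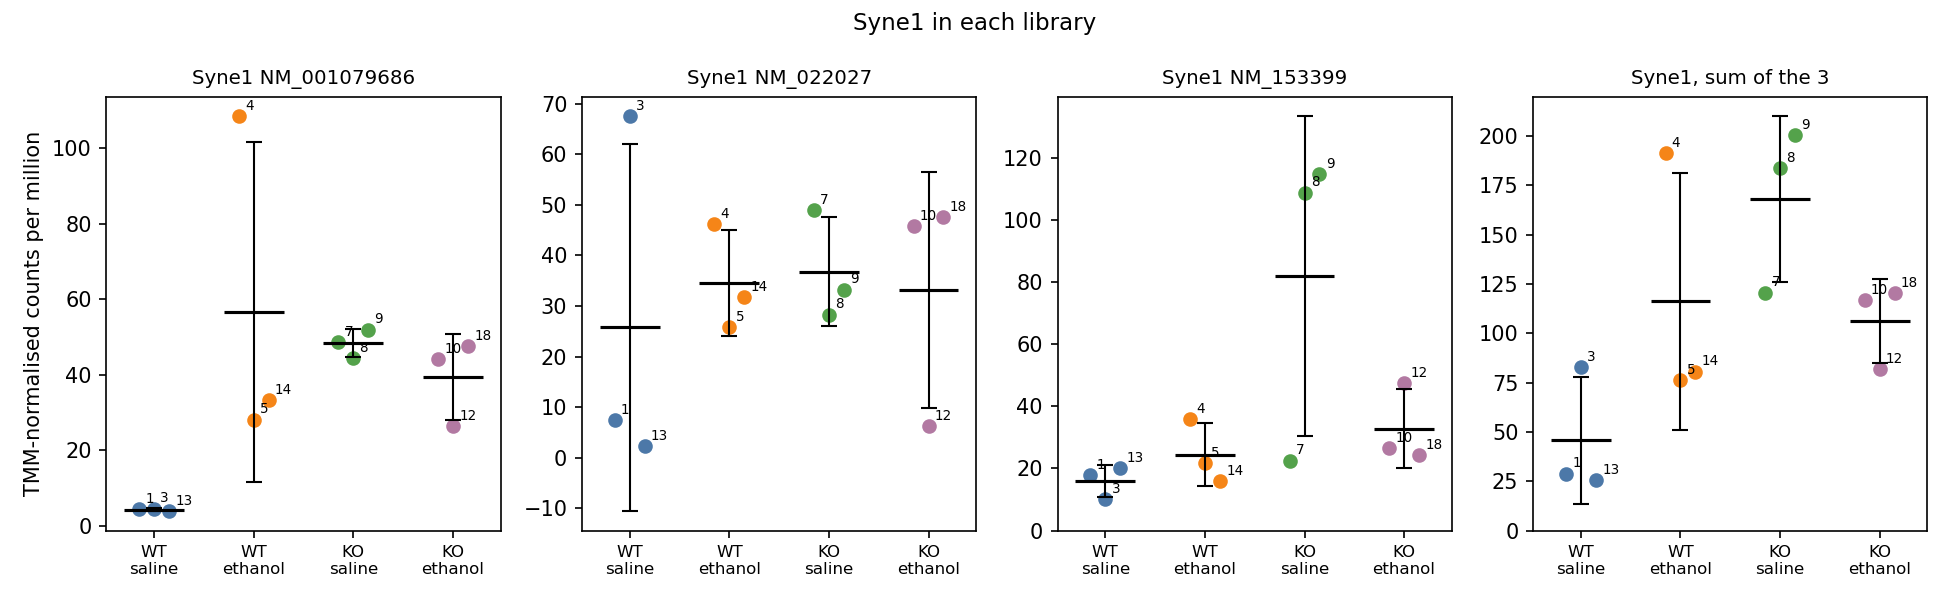
CPM (TMM-normalised, vertical axis) of the 3 Syne1 transcripts and their sum in the 12 libraries, with library numbers beside the points, group means as lines and SD as bars. NM_001079686 lay between 4.01 and 4.60 in WT saline and at 26.5 or more elsewhere, whereas NM_022027 was high in WT saline 3 and NM_153399 in KO saline 8 and 9.

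The other Syne1 transcripts did not share this pattern. NM_022027 measured 7.48, 67.5 and 2.30 CPM in WT saline 1, 3 and 13, so the group held both the lowest and the highest value of the 12 libraries. It measured 46.3, 25.8 and 31.8 CPM in WT ethanol 4, 5 and 14, 48.9, 28.3 and 33.2 CPM in KO saline, and 45.8, 6.25 and 47.6 CPM in KO ethanol 10, 12 and 18. The 5′ transcript NM_153399 measured 17.8, 10.2 and 20.2 CPM in WT saline and 35.8, 21.8 and 15.9 CPM in WT ethanol. It measured 22.6, 109 and 115 CPM in KO saline 7, 8 and 9 and 26.7, 47.5 and 24.4 CPM in KO ethanol. KO saline 8 and 9 were therefore above every other library, and KO saline 7 was within the range of the rest.

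How the Syne1 count was divided differed as much as its size. NM_001079686 received 5.58% to 15.1% of the Syne1 count in WT saline, 37.1% to 56.9% in WT ethanol, 24.5% to 40.5% in KO saline and 33.0% to 39.8% in KO ethanol. In WT saline 3 its 9 of 161 rounded counts (5.59%) gave an exact binomial 95% interval of 2.59% to 10.3%, and in KO ethanol 12 its 16 of 49 rounded counts (32.7%) gave 19.9% to 47.5%. NM_022027 held 82.0% of the count in WT saline 3, and NM_153399 held 76.2% in WT saline 13, 59.9% in KO saline 8 and 57.4% in KO saline 9. These intervals cover counting error only.

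Summed over its transcripts, Syne1 measured 28.8, 82.8 and 25.6 CPM in WT saline, 192, 76.3 and 80.6 CPM in WT ethanol, 121, 184 and 200.4 CPM in KO saline and 117, 81.9 and 120.3 CPM in KO ethanol. The WT groups overlapped in the sum because WT saline 3 reached the level of WT ethanol 5 and 14. The log2 fold changes of the sum were 1.36 ± 0.49 for WT ethanol versus WT saline, 1.90 ± 0.50 for KO saline versus WT saline and -0.65 ± 0.49 for KO ethanol versus KO saline (95% interval -1.60 to 0.30, edgeR adjusted p = 0.999). Leaving out WT ethanol 4 brought the first to 0.80. Syne2, the other nesprin, measured 18.7, 24.05 and 13.7 CPM in WT saline and 29.6, 13.8 and 22.4 CPM in WT ethanol, and 13.1 to 29.2 CPM in the KO libraries. Its groups overlapped in the WT comparison, with a log2 fold change of 0.23 ± 0.43 for its transcript.

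The spectraplakins were low in WT saline 1 and 13 but not in WT saline 3. The main Dst transcript, NM_133833, measured 49.7, 208 and 32.7 CPM in WT saline 1, 3 and 13, 261, 152 and 173 CPM in WT ethanol, 234, 224 and 246 CPM in KO saline and 203, 149 and 197 CPM in KO ethanol. WT saline 3 thus lay within the range of the treated and KO libraries. Dst NM_134448 stayed at 2.89 CPM or less in every library and had the lowest fold change of the Dst transcripts (-1.99 ± 1.19 in WT). Dst NM_001276764, with the highest (1.90 ± 1.03), measured 2.84, 5.28 and 0.322 CPM in WT saline and 19.6, 4.10 and 3.44 CPM in WT ethanol. Macf1 NM_001199137 held 85.8% or more of its gene's count in every library. It measured 123, 288 and 89.8 CPM in WT saline, 467, 243 and 287 CPM in WT ethanol, 325, 349 and 322 CPM in KO saline and 314, 148 and 311 CPM in KO ethanol. The minor Macf1 NM_001199136 measured 20.4, 0.000122 and 4.16 CPM in WT saline and 13.6 to 24.6 CPM in WT ethanol.

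Utrophin was the 1 of 10 gene sums in which the WT groups did not overlap. Over all gene sums, 11.2% had every WT ethanol library above every WT saline library and 8.3% had every one below. Utrn NM_011682 measured 22.1, 11.3 and 8.07 CPM in WT saline 1, 3 and 13 and 36.4, 23.8 and 27.7 CPM in WT ethanol 4, 5 and 14. It measured 20.9, 21.0 and 23.6 CPM in KO saline and 21.5, 26.2 and 22.8 CPM in KO ethanol. Every WT ethanol library was above every WT saline library, although WT saline 1 and WT ethanol 5 were close. The log2 fold change was 1.09 ± 0.42 in WT and 0.10 ± 0.42 in KO.

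Dystrophin transcripts went in both directions in WT. The short transcript NM_001314035 measured 8.43, 16.04 and 1.81 CPM in WT saline and 0.797, 2.82 and 3.17 CPM in WT ethanol (log2 fold change -1.92 ± 0.80). NM_001314034 measured 8.02, 10.5 and 2.96 CPM in WT saline and 2.03, 2.35 and 2.08 CPM in WT ethanol, with no overlap. The full-length NM_007868 had the highest fold change (0.65 ± 0.59), at 7.06, 3.80 and 3.20 CPM in WT saline and 9.10, 6.58 and 6.05 CPM in WT ethanol. In KO saline 7, 8 and 9 it measured 5.14, 16.6 and 10.7 CPM, and in KO ethanol 5.99, 2.43 and 3.66 CPM. NM_001314036 ranged from 1.43 CPM in KO ethanol 12 to 23.5 CPM in KO saline 9, and NM_001314037 from 2.18 CPM in KO ethanol 12 to 27.5 CPM in WT ethanol 14. The 5 short transcripts share a start and most of their sequence, and their sum was 21.1 to 47.0 CPM in WT saline, 27.5 to 51.3 CPM in WT ethanol, 42.4 to 52.98 CPM in KO saline and 12.3 to 49.7 CPM in KO ethanol. The short forms made up 75.1% to 93.1% of the Dmd count across the 12 libraries.

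Among the spectrins, the abundant transcript and the rare transcript of Sptbn1 differed. NM_175836 measured 1105, 897 and 452 CPM in WT saline, 917, 857 and 787 CPM in WT ethanol, 719.6, 1073 and 912 CPM in KO saline and 633, 789.8 and 664 CPM in KO ethanol. NM_009260 measured 3.17, 1.08 and 1.62 CPM in WT saline, 29.3, 10.1 and 10.0 CPM in WT ethanol, 11.1, 12.0 and 7.51 CPM in KO saline and 7.76 and 12.7 CPM in KO ethanol 10 and 18, and it was listed at essentially nil in KO ethanol 12. The rare transcript was therefore low in all 3 WT saline libraries, as NM_001079686 was, and also in KO ethanol 12. Its log2 fold change in WT was 3.02 ± 0.80, against 0.06 ± 0.42 for NM_175836. The 3 Sptan1 transcripts moved more alike, from NM_001177668 (0.09 ± 0.43) to NM_001177667 (0.80 ± 0.41). NM_001177667 measured 215, 389 and 134 CPM in WT saline and 461, 356 and 461 CPM in WT ethanol. NM_001177668 measured 255, 562 and 173 CPM in WT saline and 351, 306 and 394 CPM in WT ethanol. WT saline 3 thus lay within the range of WT ethanol for NM_001177667 and above it for NM_001177668. NM_001309460 ranged from 91.2 CPM in WT saline 13 to 414 CPM in KO saline 8.

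Ank3 transcripts went apart within the gene. Its main transcript NM_170730 measured 132, 507 and 62.5 CPM in WT saline 1, 3 and 13, 76.6, 81.0 and 109 CPM in WT ethanol, 152, 115 and 99.7 CPM in KO saline and 154, 238 and 133 CPM in KO ethanol. WT saline 3 was the highest and WT saline 13 the lowest of the 12 libraries, and WT saline 1 lay within the range of KO saline. The log2 fold change of -1.39 in WT became -0.16 without WT saline 3. NM_170690, with the highest fold change (2.51 ± 0.80), measured 0.235, 1.19 and 0.486 CPM in WT saline and 4.23, 1.95 and 2.04 CPM in WT ethanol.

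Together, NM_146005, NM_170688, NM_170689, NM_170690, NM_170728 and NM_170729 measured 10.4, 14.7 and 12.7 CPM in WT saline, 52.0, 36.3 and 49.5 CPM in WT ethanol, 38.9, 56.7 and 39.4 CPM in KO saline and 35.0, 52.9 and 37.9 CPM in KO ethanol. All 9 libraries outside WT saline were above all 3 within it. These 6 are the Ank3 transcripts that were higher at unadjusted p under 0.05 (edgeR) in WT ethanol versus WT saline. NM_170730, NM_009670 and NM_170687, which were left out, had negative fold changes there. The separation of the sum is therefore a description that follows from this grouping. These 6 transcripts received 2.57% to 14.8% of the Ank3 count in WT saline, 27.0% to 36.9% in WT ethanol, 16.6% to 29.2% in KO saline and 16.5% to 19.0% in KO ethanol. The remaining Ank3 transcripts, NM_009670 (10.0 to 45.2 CPM) and NM_170687 (0.221 to 7.32 CPM), were both highest in WT saline 3. The 6 summed transcripts are not 6 separate measurements. Relative to NM_146005, NM_170689 and NM_170690 were within 1% of their median ratios (1.30 and 1.36) in 10 of 12 libraries and NM_170729 (1.78) in 8, and the ratio of NM_170728 to NM_170688 (1.84) held in 8, so in most libraries their reads were shared out in fixed proportions. Of the Ank2 transcripts, NM_001034168 measured 199.8, 686 and 68.9 CPM in WT saline and 318, 262 and 199 CPM in WT ethanol (-0.29 ± 0.60). NM_178655 measured 109, 37.4 and 63.0 CPM in WT saline and 145, 134 and 72.8 CPM in WT ethanol (0.74 ± 0.44), so WT saline 3 was the highest library for 1 Ank2 transcript and the lowest for the other.

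**Figure D2:**
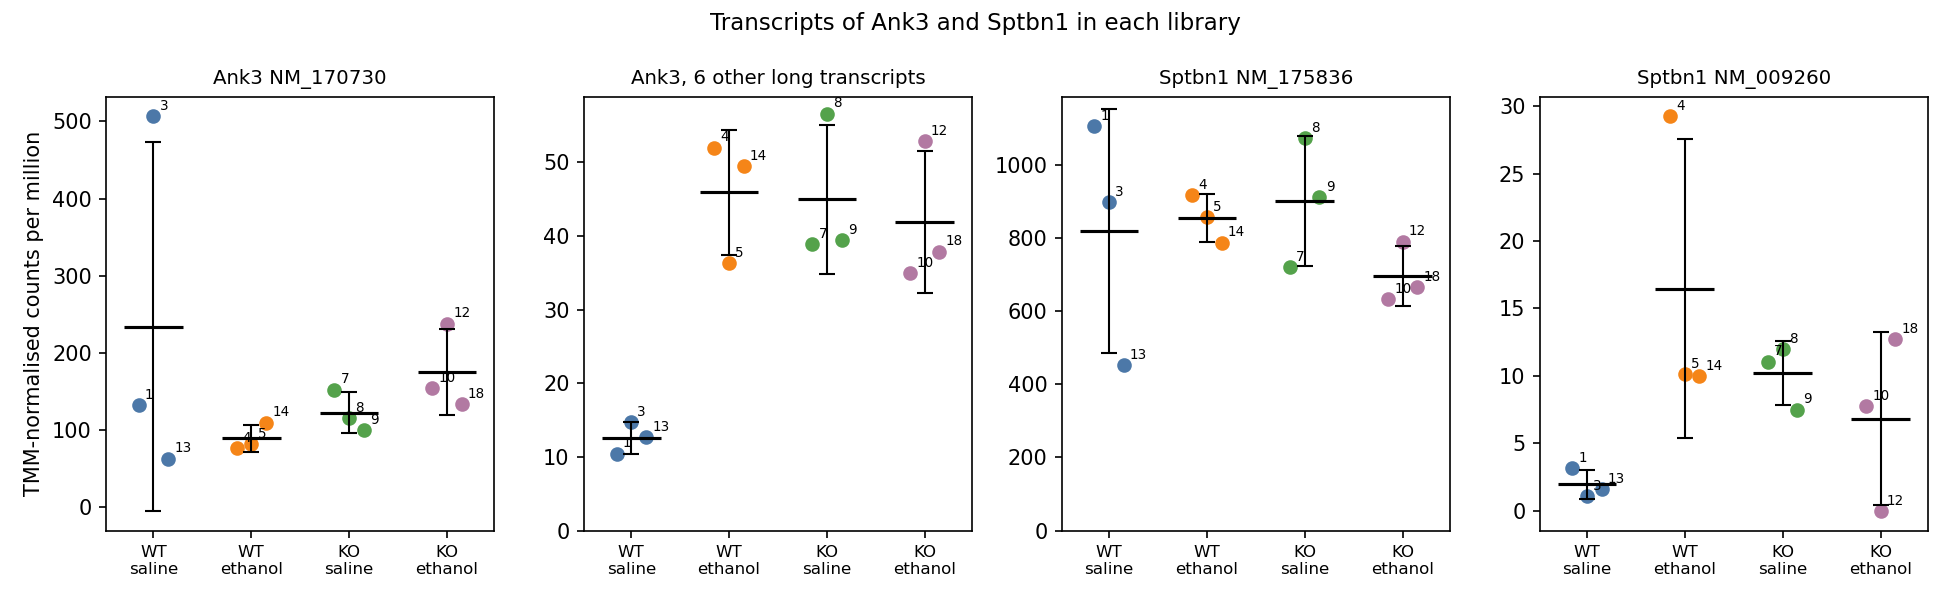
CPM (TMM-normalised, vertical axis) of Ank3 NM_170730, of 6 other Ank3 transcripts summed, and of both Sptbn1 transcripts in the 12 libraries, with library numbers, group means and SD bars. The 6 Ank3 transcripts were those higher in WT ethanol versus WT saline. Their sum lay at 14.7 or below in WT saline and at 35.0 or above elsewhere, while NM_170730 was highest in WT saline 3.

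The other gene sums, as mean ± SD in CPM for WT saline, WT ethanol, KO saline and KO ethanol, were as follows. Dst had 100.8 ± 98.8, 205 ± 68.0, 249 ± 7.83 and 194 ± 36.8. Macf1 had 173 ± 104, 352 ± 125, 349 ± 17.8 and 270.1 ± 97.8. The spectraplakin sums were thus lowest on average in WT saline. Utrn had 13.5 ± 7.11, 29.4 ± 6.51, 21.9 ± 1.45 and 23.8 ± 2.69. Dmd had 41.8 ± 15.9, 45.9 ± 10.3, 57.9 ± 10.9 and 39.3 ± 21.1, and Syne2 18.5 ± 5.48, 22.0 ± 7.92, 26.1 ± 2.69 and 23.6 ± 8.89. Dmd and Syne2 overlapped in the WT comparison. Sptbn1 had 806 ± 330.4, 873 ± 78.9, 917 ± 181 and 709.5 ± 85.8, and Sptan1 776 ± 503, 1108 ± 159, 1385 ± 151 and 1178 ± 83.4. Ank2 had 385 ± 309, 378 ± 99.0, 432 ± 52.6 and 378 ± 79.5, and Ank3 270.0 ± 268, 153 ± 26.0, 199.8 ± 34.3 and 242 ± 61.7. The WT saline mean of Ank3 rested on WT saline 3 (577 CPM), since WT saline 1 and 13 had 150.3 and 82.7 CPM, and without WT saline 3 the log2 fold change of the Ank3 sum went from -0.82 to 0.35 for WT ethanol versus WT saline and from -0.43 to 0.75 for KO saline versus WT saline.

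Across the 10 gene sums, WT saline 13 was the lowest of the 12 libraries for 9 genes and among the 2 lowest for all 10. WT saline 1 was among the 2 lowest for 4. KO ethanol 12 was the lowest for the remaining gene, Dmd. WT ethanol 4 was the highest for 4 gene sums, KO saline 8 for 3, WT saline 3 for Ank2 and Ank3, and KO saline 9 for Syne1. The SD of the gene sums was larger in WT saline than in KO saline for 9 of the 10 genes, the exception being Syne1.

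**Figure D3:**
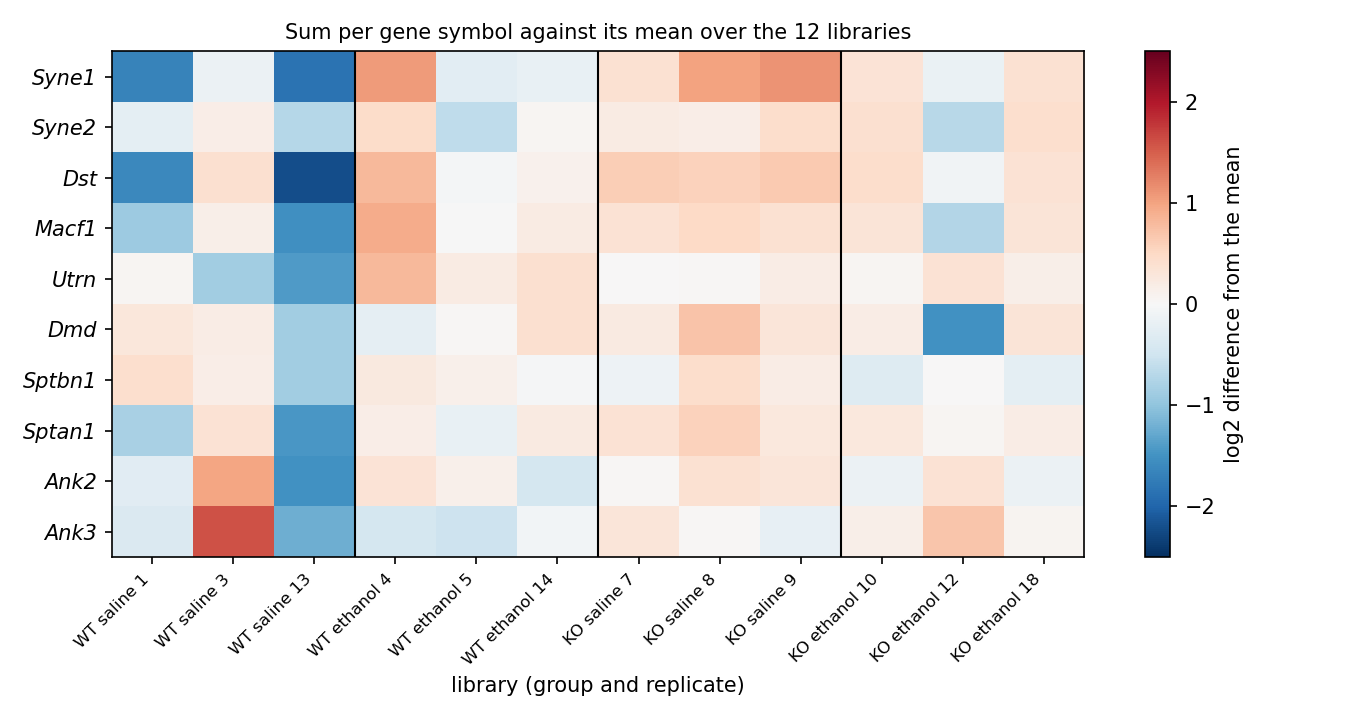
Log2 difference of each gene sum (rows) from its own mean over the 12 libraries (columns, in groups of 3), where red is above and blue below that mean. WT saline 13 was the lowest library for 9 of the 10 genes, and WT saline 3 the highest for Ank2 and Ank3.

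In WT ethanol versus WT saline, 9 of the 31 transcripts were higher and 3 lower at unadjusted p under 0.05 in edgeR, and over all 21715 transcripts 10.0% were higher and 8.16% lower. The 9 were Syne1 NM_001079686, Utrn NM_011682, Sptbn1 NM_009260 and the 6 Ank3 transcripts, and the 3 were Dmd NM_001314034, Dmd NM_001314035 and Ank3 NM_170730. At adjusted p under 0.30, the limit used in the study, 13 of 31 passed against 21.5% of all, and at adjusted p under 0.05 NM_001079686 passed, against 0.0553% of all, which restates how it was selected. In 9 of 31 every WT ethanol library was above every WT saline library (12.6% of all), and in 1 every library was below (8.31% of all). Of the 10 gene sums, Syne1, Macf1 and Utrn passed at unadjusted p under 0.05, where 18.3% of all gene sums did. The median log2 fold change was 0.67 over the 31 transcripts and 0.06 over all. Syne1 was chosen on this comparison, and nothing is read from these counts.

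In KO saline versus WT saline, 12 of the 31 transcripts were higher and 0 lower at unadjusted p under 0.05, against 9.53% and 9.54% of all, and 14 passed at adjusted p under 0.30, against 23.8%. At adjusted p under 0.05 only NM_001079686 passed, against 0.0691%. In 14 of 31 the KO saline libraries were all above the WT saline libraries and in 0 all below, against 14.1% and 9.86% of all. The gene sums that passed were Syne1, Dst (1.32 ± 0.55) and Macf1 (1.01 ± 0.46), where 19.6% of all did. This comparison used the same WT saline libraries, so it does not stand apart from the first. In KO ethanol versus WT ethanol, 0 of 31 transcripts passed at unadjusted p under 0.05 (3.29% of all) and 0 at adjusted p under 0.30 (0.0% of all), and 0 of 10 gene sums passed (3.24% of all). For the Genotype x Treatment interaction, 2 of 31 were positive and 7 negative at unadjusted p under 0.05 (7.25% and 8.06% of all), and 7 passed at adjusted p under 0.30 (12.1% of all). Of the gene sums, Syne1 passed (-2.02 ± 0.69), where 15.2% of all did.

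KO ethanol versus KO saline asked whether ethanol shifted these genes in the absence of p53. In edgeR no member transcript passed at adjusted p under 0.30, and 0.0% of all transcripts did, while 650 of all had an unadjusted p under 0.05. At unadjusted p under 0.05, 0 of 31 were higher and 2 lower, against 1.31% and 1.68% of all. The 2 were Syne1 NM_153399 (-1.37 ± 0.57, adjusted p = 1.00 in edgeR) and Dmd NM_007868 (-1.37 ± 0.60, adjusted p = 1.00). DESeq2 also put 2 members at unadjusted p under 0.05. Both named transcripts were high in KO saline 8 and 9, their groups overlapped, and without KO saline 8 neither passed at unadjusted p under 0.05 (log2 fold changes of -1.11 and -0.92). In 4 transcripts all KO ethanol libraries were below all KO saline libraries (7.28% of all), namely Dst NM_133833, Macf1 NM_001199137, Dmd NM_001314036 and Sptan1 NM_001309460, and in 0 were they all above (3.89% of all).

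None of the 10 gene sums passed at unadjusted p under 0.05 in KO by edgeR or DESeq2, where in edgeR 3.15% of all did. Syne1, Dst, Macf1 and Sptan1 had all KO ethanol libraries below all KO saline libraries (6.87% of all gene sums) and none had them all above (3.89%). The gaps were narrow: Syne1 reached 120.3 CPM in KO ethanol and began at 121 CPM in KO saline. The fold changes ran from -0.65 for Syne1 to 0.27 ± 0.55 for Ank3, and the 95% intervals were wide, from -1.20 to 0.81 for Ank2 and from -0.81 to 1.34 for Ank3. The median was -0.22 over the 31 transcripts and -0.01 over all. Without the library labelled KO ethanol 12, 1 transcript (Syne1 NM_153399, -1.71 ± 0.64) and 0 gene sums passed at unadjusted p under 0.05. The gene sums then ran from -0.51 for Syne1 to 0.14 for Syne2, with Sptbn1 at -0.47, Ank2 at -0.38, Dst at -0.21, Sptan1 at -0.18, Dmd at -0.17, Macf1 at -0.10, Utrn at 0.02 and Ank3 at 0.04, and NM_001079686 was at -0.10.

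**Figure D4:**
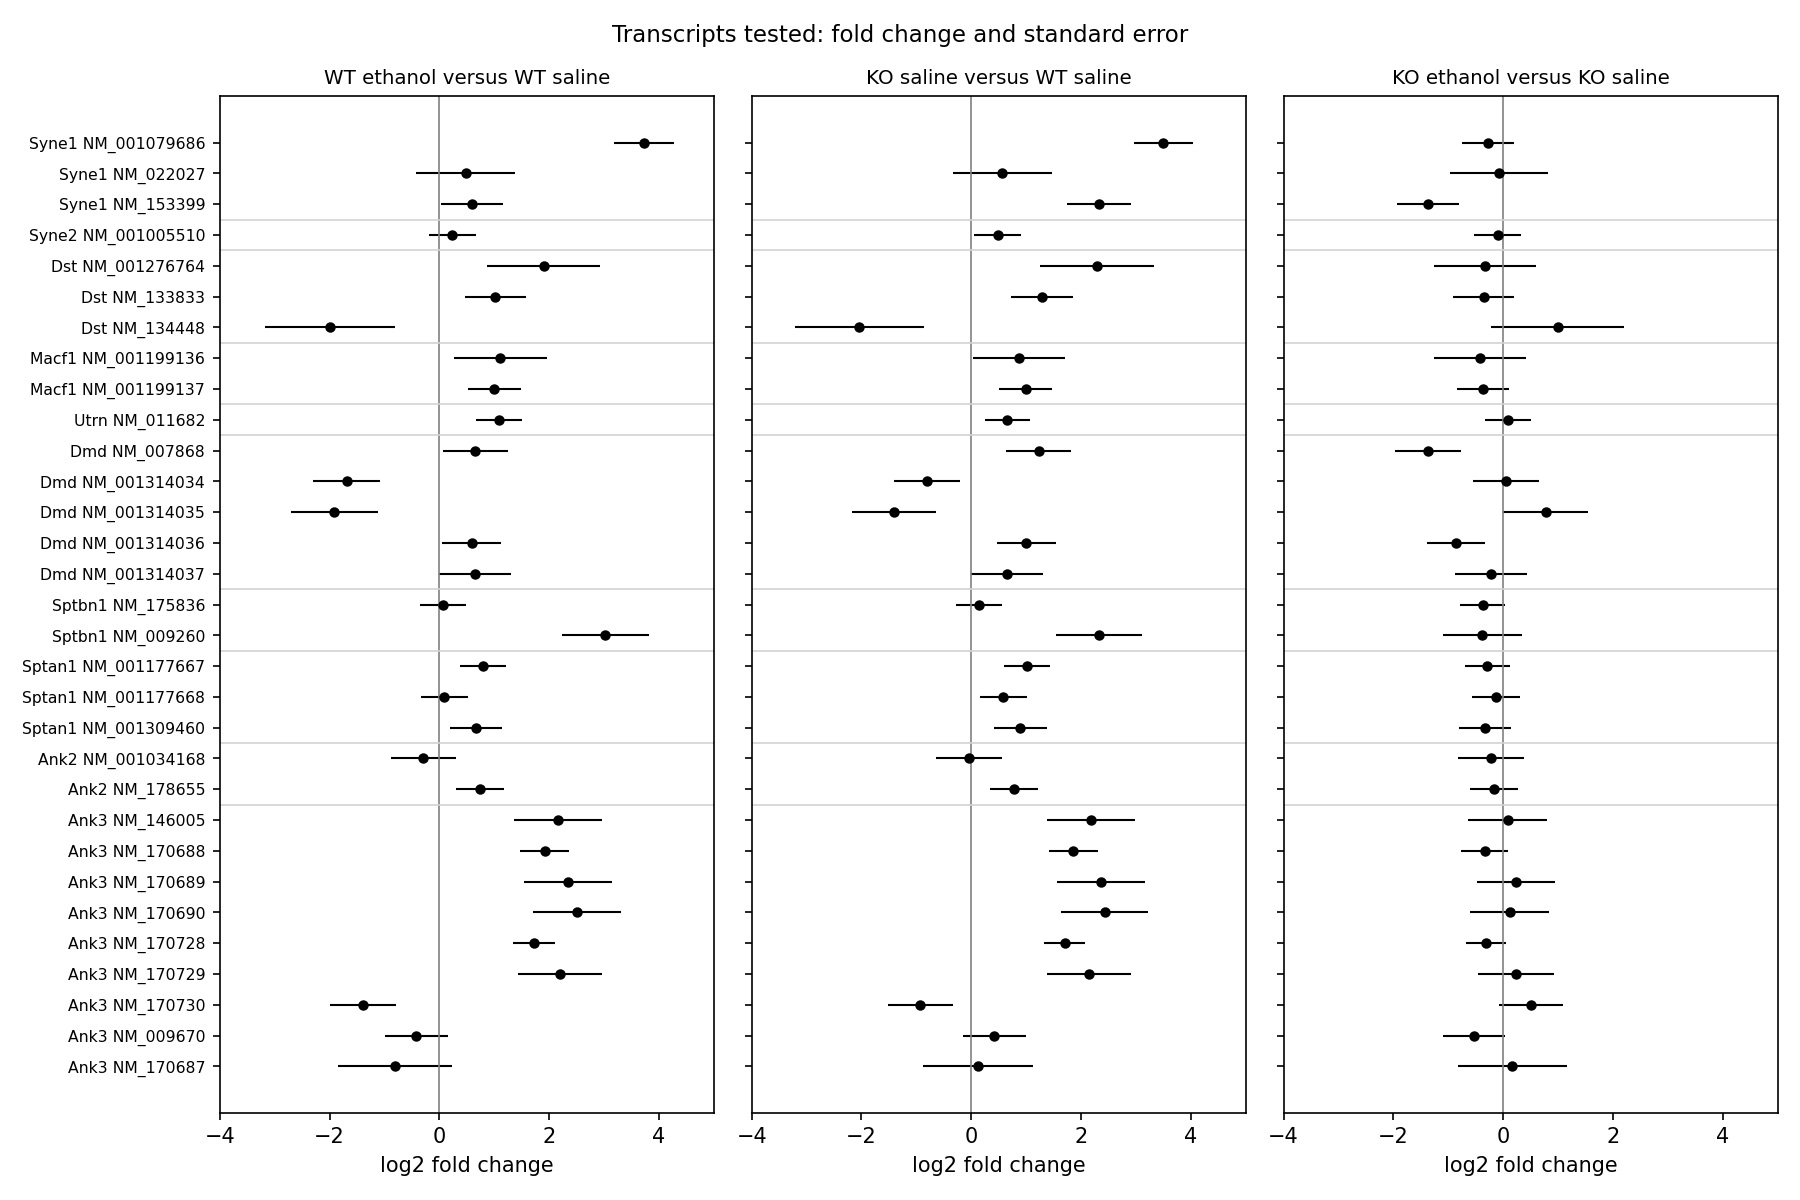
Log2 fold change (horizontal axis) with its standard error for the 31 transcripts tested, grouped by gene, in 3 comparisons. Syne1 NM_001079686 stood at 3.73 in WT ethanol versus WT saline, 3.49 in KO saline versus WT saline and -0.27 in KO ethanol versus KO saline, and the first 2 panels share the WT saline libraries.

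Length moved with the same libraries. The 931 other transcripts of 8 kb and over had a median log2 difference from their own means of -0.48, -0.04 and -0.65 in WT saline 1, 3 and 13, and of -0.71 in KO ethanol 12. The 20 members of 8 kb and over had -0.87, -0.53 and -1.31 in WT saline and -0.03 in KO ethanol 12. The 5590 transcripts under 2 kb had 0.74, -0.06 and 0.37 in WT saline. In WT ethanol versus WT saline, 20.4% of the long transcripts were higher and 0.43% lower at unadjusted p under 0.05, and in KO saline versus WT saline 22.5% were higher and 0.43% lower. With the fold changes freed of their trend with length, 2 of 31 members were higher and 4 lower in WT ethanol versus WT saline, against 5.86% and 7.91% of all. NM_001079686 then had a log2 fold change of 2.66 ± 0.45, and NM_170728 of Ank3 0.83 ± 0.48 against 1.72 ± 0.38 before. The part of length in the member values was not tested beyond this.

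**Figure D5:**
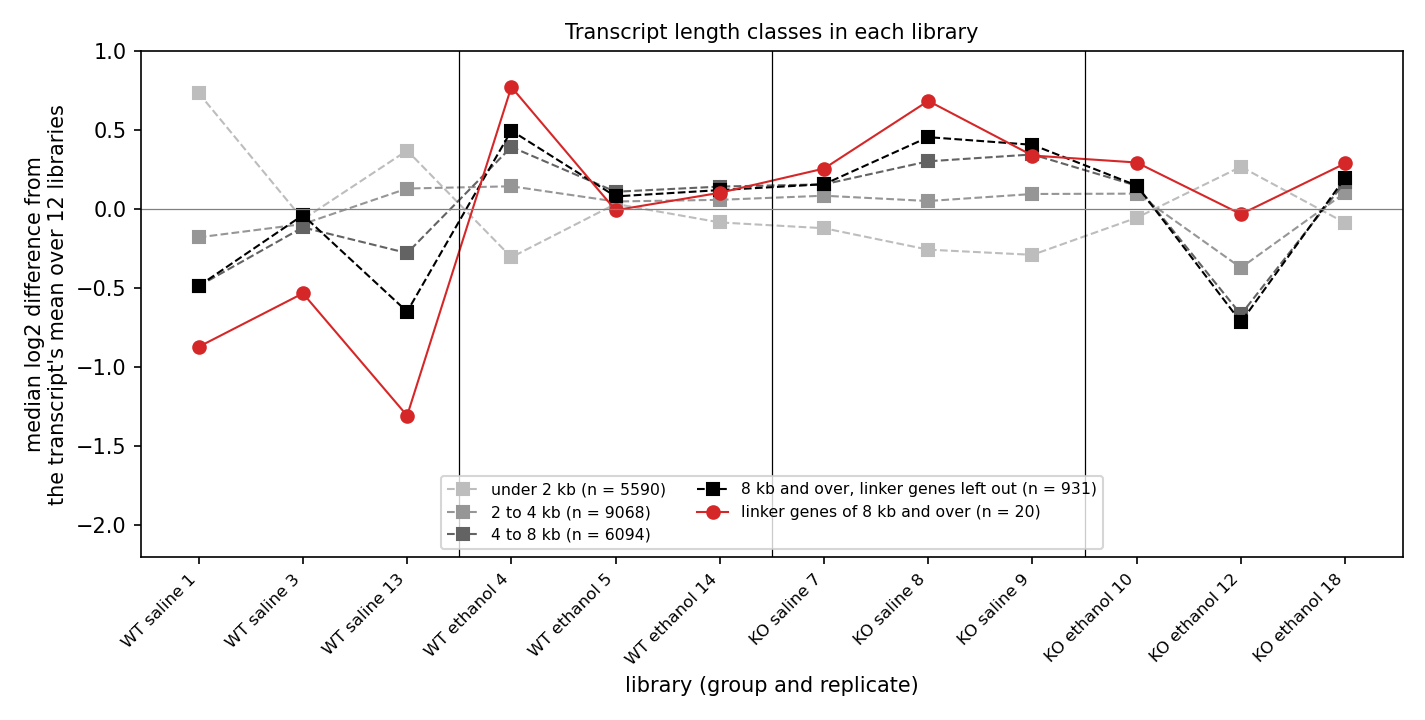
Median log2 difference from each transcript's mean over the 12 libraries (vertical axis) in 4 length classes and in the 20 linker-gene transcripts of 8 kb and over (red), by library. Transcripts of 8 kb and over were at -0.48 and -0.65 in WT saline 1 and 13 and at -0.71 in KO ethanol 12, and the linker genes at -0.87, -1.31 and -0.03 there.

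Red blood cell markers moved with the WT saline libraries as well. Their 5 genes summed to 337 to 1319 CPM in WT saline, 50.3 to 145 CPM in WT ethanol, 35.9 to 99.3 CPM in KO saline and 29.0 to 765 CPM in KO ethanol, and the highest KO ethanol value was in replicate 12. The 4 neuronal markers, all present, summed to 4417 to 6016 CPM in WT saline, 2412 to 3461 CPM in WT ethanol, 3188 to 3345 CPM in KO saline and 2651 to 6287 CPM in KO ethanol. The 4 astrocyte markers were at 1003 and 1013 CPM in KO saline 8 and 9, where NM_153399 was high, and at 475 CPM in KO saline 7, but they were also at 1024 and 1071 CPM in WT saline 1 and 13, where NM_153399 was not high, and at 1456 CPM in WT ethanol 4. The 3 interneuron markers summed to 128 to 165 CPM in WT saline and 291 to 344 CPM in WT ethanol, and to 191 to 224 CPM in KO saline and 162 to 251 CPM in KO ethanol, so WT saline lay below WT ethanol and KO saline and overlapped KO ethanol. The part of these cells in the linker gene values was not tested.

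Binding partners were counted by role, beside 3.15% of all gene sums at unadjusted p under 0.05 in KO ethanol versus KO saline. Of 16 nuclear envelope genes 15 were measured, and 0 passed at unadjusted p under 0.05 in KO ethanol versus KO saline. The kinesin light chain Klc1 (0.23 ± 0.39) and emerin (Emd, 0.35 ± 0.39) had the highest RPKM. Of 17 dystrophin complex genes 14 were measured and 0 passed, with agrin (Agrn), among those of highest RPKM, at 0.25 ± 0.52. Of 19 spectraplakin and plakin partners 18 were measured and 0 passed, with the cytoplasmic actins Actg1 at 0.32 ± 0.56 and Actb at 0.43 ± 0.51. Of 26 spectrin and ankyrin partners 24 were measured, and 0 were higher and 3 lower: the adhesion molecule Chl1 (-1.45 ± 0.49), the potassium channel subunit Kcnq3 (-0.97 ± 0.45) and the sodium-calcium exchanger Slc8a1 (-0.79 ± 0.35), each with an adjusted p of 0.999 in edgeR. Adducin Add1 (0.16 ± 0.39) and the adhesion molecule L1cam (0.07 ± 0.57) had the highest RPKM there.

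In the comparisons with WT saline the same lists are descriptions, beside 18.3% of all gene sums in WT ethanol versus WT saline and 19.6% in KO saline versus WT saline in either direction. In WT ethanol versus WT saline, the numbers higher and lower at unadjusted p under 0.05 were 0 and 1 for the nuclear envelope, 4 and 0 for the dystrophin complex, 4 and 0 for spectrin and ankyrin partners and 3 and 0 for spectraplakin and plakin partners. In KO saline versus WT saline they were 0 and 2, 3 and 0, 8 and 0, and 3 and 1. Over all gene sums 9.99% were higher and 8.36% lower in the first comparison, and 9.14% and 10.5% in the second. The 4 lists held 15, 14, 24 and 18 measured genes in this order, and nothing is read from these counts. The spectrin and ankyrin partners had a median log2 fold change of 0.54 in the first comparison and 0.86 in the second.

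The transcripts whose pattern was most like that of NM_001079686 over the 12 libraries, by Pearson correlation of log2 CPM, were Cit NM_007708 (0.97), Dab2ip NM_001001602 (0.97), Crebbp NM_001025432 (0.97), Dab2ip NM_001290640 (0.97) and Nfat5 NM_133957 (0.97). The gene sums most like Syne1 were Trio (0.98), Dbt (0.96), Akap2 (0.95), Dst (0.94) and Dscam (0.94). By Pearson correlation the nearest linker transcript to NM_001079686 was Ank3 NM_170728 (0.92, Spearman 0.57), by Spearman it was Macf1 NM_001199137 (0.90, Pearson 0.78), and by Pearson the other Syne1 transcripts came no nearer than 0.56. The 12 libraries share their depth and length differences across all these transcripts, so the values are descriptions.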

How the data were processed

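RNA from the cortex was sequenced as stranded single-end libraries. The authors filtered reads on quality, aligned them to mm10 (Bowtie2, run through TopHat) and used Partek Flow to quantify the transcripts of RefSeq. The deposited files give an estimated count per transcript, which need not be whole because reads shared by transcripts were divided among them, and the deposited RPKM, a count scaled to transcript length and library size whose further scaling is not given in the sources used here. Pups were dissected by laser or punch, and the method used for each library is not given.

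Estimated counts were rounded to whole numbers and tested with edgeR 4.0.16 (quasi-likelihood, TMM factors, filterByExpr, 1 mean per group over all 12 libraries) in R 4.3.3, with Benjamini-Hochberg adjustment over all 21715 transcripts or 14739 gene sums. Calls used the thresholds 0.05 (unadjusted p) and 0.05 or 0.30 (adjusted p). The scripts were tested on simulated data. No 2 libraries of a group were identical (within-group Spearman correlations of 0.778 to 0.972), and p-values measure the spread between these libraries. Within KO ethanol the correlations ran from 0.784 to 0.972, so some of its libraries were much more alike than others. Transcript lengths were those implied by the deposited count and RPKM for 21936 transcripts, of which 74.3% of those compared lay within 10% of the GENCODE vM21 length, and otherwise the GENCODE length where there was one. Correlations used log2(CPM + 0.5).

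The members and gene lists were chosen with earlier results of these data known. Values in every library are given for the Syne1 transcripts and, per gene, the transcripts with the highest and lowest fold change in WT, and beyond that rule for some abundant transcripts. Of the partner genes, those that passed in KO and the 2 of highest RPKM per list are named, except 1 gene that is not reported here. Alternatives were DESeq2 1.42.0, limma 3.58.1 on log2(RPKM + 1) and log2(RPKM + 0.1), other scalings and filters, removal of the length trend, and leaving out libraries.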

Additional observations from a re-analysis of the deposited data

How the results depend on the processing

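Counts of linker transcripts at unadjusted p under 0.05 changed with the setting as follows, and the cause was not tested. In KO ethanol versus KO saline the 2 transcripts became 1 with library size alone, with at least 10 counts in every library and without the libraries named with L, and 0 with the first letter of the library name as covariate, with the length trend removed and with limma on either RPKM scale (0 to 2 with 1 library left out). In WT ethanol versus WT saline 12 became 5 with at least 10 counts in every library, 6 with the length trend removed, of which 2 were higher and 4 lower against 9 and 3 before, and 16 without the L libraries (7 without WT ethanol 4 to 14 without WT saline 3). In KO saline versus WT saline 12, all higher, became 7 with at least 10 counts in every library, 19 without the L libraries and 5 with the length trend removed, of which 1 was higher and 4 lower (8 to 19, the highest without WT saline 3). The shares over all transcripts moved too: without the L libraries they were 16.7% higher and 15.3% lower in the first of these comparisons and 17.3% and 16.2% in the second, and with the length trend removed 5.86% and 7.91%, and 5.06% and 7.96%. In KO ethanol versus WT ethanol 0 became 1 with only the groups compared, with the length trend removed and without WT saline 1 and 13, an alternative chosen after seeing the data (0 to 1). For the interaction 9 became 14 with library size alone and 3 with at least 10 counts. The number was 15 without the L libraries and 14 without WT saline 1 and 13 (5 to 13). With the length trend removed 4 were positive and 2 negative against 2 and 7 before. Of all transcripts 7.41% were positive and 10.9% negative without the L libraries, and 6.87% and 3.58% with the length trend removed.

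Of the gene sums, 3 in WT ethanol versus WT saline became 1 with only the groups compared, 5 without the L libraries and 1 with the length trend removed, which was lower where the 3 were higher (0 without WT ethanol 4 to 5 without WT saline 3). In KO saline versus WT saline 3 became 5 with library size alone, without the L libraries and with limma on either scale, and 1 with only the groups compared, with the length trend removed and without WT saline 1 and 13, where the 1 was lower and the 3 had been higher (1 without KO saline 9 to 5 without WT saline 3). In KO ethanol versus WT ethanol 0 became 1 with the length trend removed. For the interaction 1 became 3 with library size alone, 2 with DESeq2, 2 with at least 1 count in any library, 3 with at least 10, 4 without the L libraries, 2 with the first letter as covariate, 5 with limma on either scale and 2 without WT saline 1 and 13 (1 to 4). In KO ethanol versus KO saline, where 0 gene sums passed, 0 also passed with each library left out. Of all gene sums without the L libraries, 18.9% were higher and 18.4% lower in WT ethanol versus WT saline. In KO saline versus WT saline these shares were 19.5% and 19.6%. With the length trend removed they were 5.55% and 7.44% in the former and 4.39% and 6.99% in the latter.

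Library size alone moved the median log2 fold change of all transcripts from 0.06 to 0.54 in WT ethanol versus WT saline, and removing the length trend moved it to -0.23. The mean share of NM_001079686 in the summed Syne1 RPKM was 29.97% (WT ethanol), 18.7% (KO saline) and 23.96% (KO ethanol), against 45.1%, 30.3% and 36.9% of the count. Of the 5 transcripts and 5 gene sums most like Syne1, 0 and 1 were also listed by Spearman correlation. No paired analysis was possible because the groups share no replicate numbers. KO ethanol 12 had 49 rounded counts for Syne1. Of the 2 transcripts lower in KO ethanol, neither passed without KO saline 8, KO saline 9 or KO ethanol 18, and NM_153399 still passed without KO ethanol 12.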
